A study of Mus musculus with 6 samples.

Results

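The early activated state of LRRK2-deficient microglia was read from a single pair of arrays, 1 from LRRK2KO microglia and 1 from Ntg microglia, both after 6 h of lipopolysaccharide (LPS). These are 2 of the 6 arrays of the study, taken by their sample titles. The Ntg cells came from the C57BL/6 strain and those labelled LRRK2KO from mice carrying a disrupted Lrrk2 gene, B6.129X1(FVB)-Lrrk2tm1.1Cai/J by strain name, without leucine-rich repeat kinase 2. All cells were labelled as microglia from the brain at postnatal day 3. The remaining 4 arrays held both genotypes after phosphate-buffered saline (PBS) for 24 h and after LPS for 24 h.

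Each of the 6 groups had 1 array. Every difference below is therefore a difference between a pair of arrays, with no replicate check, no error and no p-value, and the labels do not say how many animals or cultures stood behind an array. PBS was given for 24 h and no PBS array of 6 h was among the samples, so treatment and time cannot be told apart between the LPS 6 h pair and the PBS pair. The strains differ in background as well as in Lrrk2, and these also cannot be told apart.

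Microglia are the resident macrophages of the brain. LPS, from the outer membrane of Gram-negative bacteria, is sensed by the receptor complex of CD14, MD-2 and Toll-like receptor 4, which signals through MyD88 to NF-kB and MAP kinases and through TRIF to IRF3. The first branch drives tumour necrosis factor, interleukin 1 and many chemokines, and the second drives interferon beta, which in turn switches on interferon-stimulated genes. LRRK2 is a large kinase and GTPase that phosphorylates Rab GTPases of the endolysosomal system and is known for its mutations in familial Parkinson's disease.

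Of 45281 probes, 13126 (29.0%) were detected on the Ntg LPS 6 h array and 14074 (31.1%) on the LRRK2KO LPS 6 h array, at a detection p under 0.01. Median intensities were 100 and 98.2. The genes measured numbered 8039, each detected on at least 1 array of the pair, and 7196 were detected on both. Levels below are background-corrected, quantile-normalized log2 values, and differences are LRRK2KO minus Ntg. Microglial identity was checked with 12 markers, of which 10 were on the array: 8 were detected on the Ntg array and 9 on the LRRK2KO array, while P2ry12 was detected on none of the 6 arrays. Lrrk2 itself could not check the labels of the LPS 6 h pair, because 0 of the 12 values of its 6 probes at LPS 6 h were detected. A Lrrk2 probe was detected on the Ntg PBS array, with an intensity of 133, and not on the LRRK2KO PBS array, with 90.6.

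A subset of the LPS response stood lower on the LRRK2KO array than on the Ntg array. Il19, Il10, Ifnb1, Il1rn, Mmp3 and Serpinb2, all of which were higher at LPS 6 h than in PBS, stood lower on the LRRK2KO array by 2.48-fold to 6.97-fold. Tnf and Il1b stood at nearly the same level in both genotypes at LPS 6 h, though Il1b differed by -1.05 in PBS. Genes higher on the LRRK2KO array included Cx3cr1, Sort1, Ypel3 and Zfp362, each of which was lower at LPS 6 h than in PBS in both genotypes. Of these lower and higher genes, Mmp3, Serpinb2 and Cx3cr1 differed the same way in PBS, past 0.5 on the log2 scale. Their PBS differences were -0.92, -0.73 and 0.55, though the other Mmp3 probes did not share this. The arrays also differed in markers of choroid plexus and of border macrophages, in LPS and in PBS alike.

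In all, 315 of 8039 genes (3.92%) differed at least 2-fold at LPS 6 h, with 153 higher (1.90%) and 162 lower (2.02%) on the LRRK2KO array. Of the 315, 99 were detected on 1 array of the pair, and for 26 of these the bound was also past 2-fold. The differences of all genes had a median of 0.04 and an SD of 0.45. Between the PBS arrays, 245 of 8768 genes (2.79%) differed at least 2-fold, 91 higher (1.04%) and 154 lower (1.76%) in LRRK2KO, and the SD over the genes was 0.39. The PBS pair also sets LRRK2KO against Ntg, so its spread is not that of arrays of the same genotype. No pair of arrays alike in genotype and treatment was among the samples, so the spread between such arrays is not known for the genes below.

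The 315 genes were divided by what the PBS pair showed. A like difference, meaning at least 0.5 on the log2 scale in the same direction, was present in PBS for 117 genes (1.46% of genes measured), 56 higher (0.697%) and 61 lower (0.759%). For 159 genes (1.98%) the PBS arrays showed no such difference, with 85 higher (1.06%) and 74 lower (0.921%) on the LRRK2KO array. A further 39 genes (0.485%) were detected on neither PBS array, 12 higher (0.149%) and 27 lower (0.336%). The split of the 159 genes moved with the normalization, to 101 higher and 43 lower with arrays scaled to a common median. It was 65 and 79 when differences under that scaling were taken relative to the median of all genes, and 13 and 32 without background correction.

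**Figure D1:**
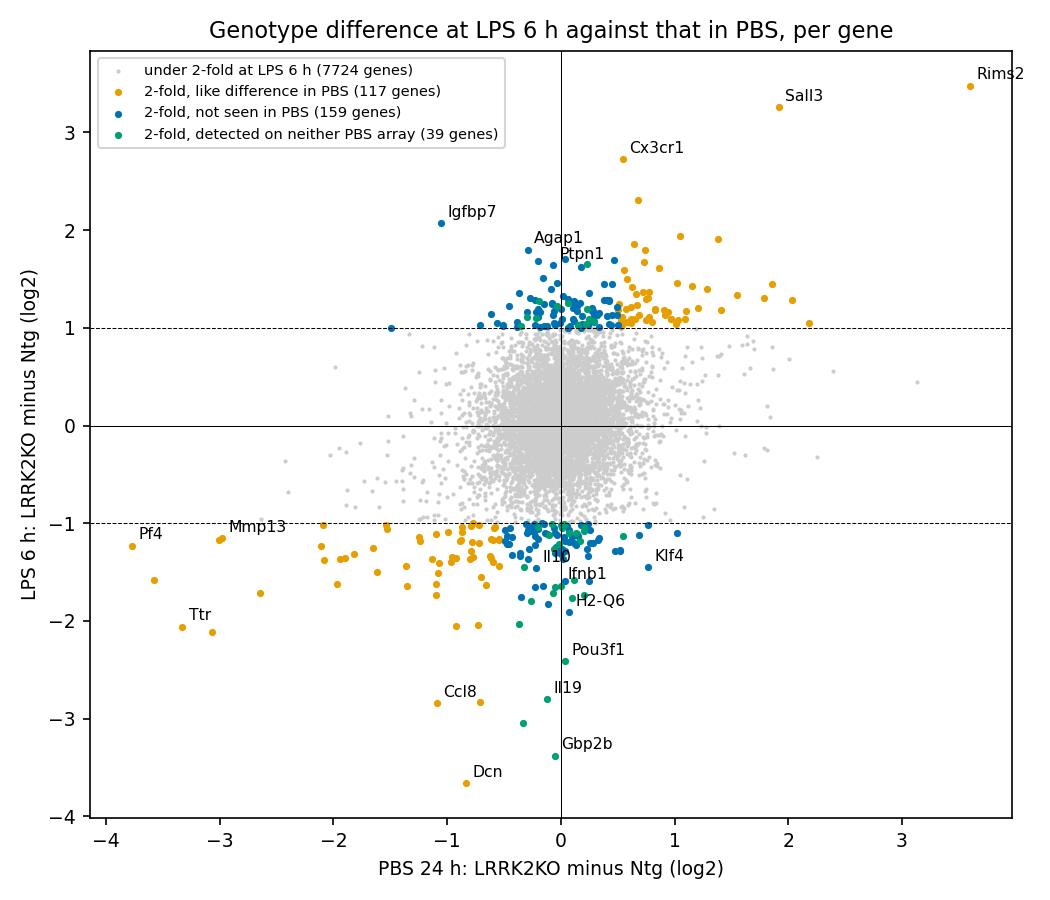
Each point is 1 of the 8039 genes, with the LRRK2KO minus Ntg difference between the PBS 24 h arrays on the horizontal axis and between the LPS 6 h arrays on the vertical axis, both in log2 units. Dashed lines mark 2-fold, and colours separate 117 genes with a like difference in PBS, 159 without and 39 detected on neither PBS array. Il19 and Pou3f1 lie far below 0 vertically and near 0 horizontally, whereas Ttr, Rims2 and Sall3 lie far from 0 on both axes.

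Among the genes with no signal in PBS was Il19. This cytokine of the interleukin 10 family had a level of 10.46 on the Ntg array and 7.66 on the LRRK2KO array, and was undetected on both PBS arrays. It was thus induced in both genotypes and 6.97-fold lower on the LRRK2KO array, and at LPS 24 h its levels were 11.20 and 8.91, again lower in LRRK2KO. Ifnb1, encoding interferon beta, had 8.30 on the Ntg array and 6.66 on the LRRK2KO array, a 3.11-fold lower level, and was undetected on both arrays in PBS and in LPS at 24 h. Ifnb1 was thus seen on the LPS 6 h pair and on no other array. Mmp10, a stromelysin that degrades extracellular matrix, had 8.07 on the Ntg array and 6.04 on the LRRK2KO array, a 4.08-fold lower level.

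Inhba, the subunit of activin A, had 7.45 on the Ntg array and 5.64 on the LRRK2KO array, 3.49-fold lower. Tnfsf10, the death ligand TRAIL, had 7.82 on the Ntg array and 6.08 on the LRRK2KO array, 3.33-fold lower. Pou3f1, a POU-domain transcription factor, had 7.67 on the Ntg array and 5.26 on the LRRK2KO array, 5.32-fold lower, and was undetected on all PBS and LPS 24 h arrays. The LRRK2KO level of Pou3f1 lay near the lowest detected signal of that array, 5.09. Without background correction, Pou3f1 differed by -1.25, Tnfsf10 by -1.04 and Inhba by -0.96, the last of these under 2-fold. All of these genes were detected on both LPS 6 h arrays, and the LRRK2KO level was the lower one. In the opposite direction the only gene of this kind detected on both arrays was Tarm1, an activating receptor of myeloid cells, with 7.15 on the Ntg array and 8.23 on the LRRK2KO array.

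Gbp2b, a guanylate-binding protein of the interferon response, was detected on the Ntg LPS 6 h array at 7.77 and not on the LRRK2KO array, which was at least 6.41-fold lower. It was undetected on both PBS arrays, and its probe may share signal with related Gbp genes. BC018473 was at least 4.72-fold lower and Hbegf, a ligand of the EGF receptor, at least 3.05-fold lower, and both were likewise undetected in PBS. For these genes the LRRK2KO array gives only a bound, taken against the lowest signal among its detected probes.

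The promoters of Il19, Ifnb1, Gbp2b and Mmp10 are shown because these LPS-induced genes, without signal in PBS, were lower on the LRRK2KO array and hold letters of the motifs of NF-kB, interferon regulatory factors or AP-1, the factors that the LPS receptor engages. Each line gives the 250 bases before the annotated gene start, 5′ to 3′ on the strand of the gene, from RefSeq on GRCm38.p6, and capitals mark matches. The motifs searched, on both strands, were GGGA, any 4 bases and CC for NF-kB, GAAA, any 2 bases and GAAA for the interferon-stimulated response element (ISRE), and TGANTCA for AP-1. Il19 lies at chr1:130940116-130940365 on the minus strand and holds 1 NF-kB match and 1 ISRE match. Ifnb1 lies at chr4:88522795-88523044 on the minus strand and holds 2 NF-kB matches. Gbp2b lies at chr3:142594597-142594846 on the plus strand and holds 1 ISRE match, and Mmp10 lies at chr9:7502092-7502341 on the plus strand and holds 1 AP-1 match.
Il19: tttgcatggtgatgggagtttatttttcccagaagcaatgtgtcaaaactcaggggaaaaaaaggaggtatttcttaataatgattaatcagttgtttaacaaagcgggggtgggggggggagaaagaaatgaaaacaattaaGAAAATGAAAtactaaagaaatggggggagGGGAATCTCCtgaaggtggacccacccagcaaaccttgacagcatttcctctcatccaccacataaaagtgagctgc
Ifnb1: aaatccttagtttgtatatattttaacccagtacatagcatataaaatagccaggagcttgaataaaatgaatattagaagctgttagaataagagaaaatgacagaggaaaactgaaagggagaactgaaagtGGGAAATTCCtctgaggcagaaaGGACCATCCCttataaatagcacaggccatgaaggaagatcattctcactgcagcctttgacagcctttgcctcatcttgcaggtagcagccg
Gbp2b: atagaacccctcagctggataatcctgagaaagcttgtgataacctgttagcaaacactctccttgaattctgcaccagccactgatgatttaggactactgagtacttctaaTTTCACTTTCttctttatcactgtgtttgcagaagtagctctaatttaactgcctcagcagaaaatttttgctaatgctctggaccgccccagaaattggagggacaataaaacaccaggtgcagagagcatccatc
Mmp10: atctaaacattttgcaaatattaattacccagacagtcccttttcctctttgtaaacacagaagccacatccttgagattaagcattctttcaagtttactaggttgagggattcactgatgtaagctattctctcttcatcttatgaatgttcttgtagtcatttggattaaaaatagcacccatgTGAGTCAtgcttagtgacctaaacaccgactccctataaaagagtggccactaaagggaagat
Among all 32851 promoters in the RefSeq table, read over the same 250 bases, 17.6% held the NF-kB letters, 2.98% the ISRE letters and 6.75% the AP-1 letters. Of 25 named genes lower on the LRRK2KO array without a like difference in PBS, 17 were in the table, with 21 promoters. Of these promoters, 7 (33.3%) held the NF-kB letters, 3 (14.3%) the ISRE letters and 3 (14.3%) the AP-1 letters. Of 19 named genes that were higher, 14 were in the table with 18 promoters, and 3 (16.7%), 1 (5.56%) and 0 held the respective letters. Some of the named genes entered through lists such as cytokines, the NF-kB pathway and interferon-stimulated genes. The shares among named genes are therefore not those of a neutral sample, and no conclusion is drawn from them. A match describes letters in this window and was not compared with binding.

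Among genes with signal in PBS but no like difference there, the largest lower level was that of H2-Q6, a non-classical class I histocompatibility gene. H2-Q6 had 11.86 on the Ntg LPS 6 h array and 9.95 on the LRRK2KO array, against 9.19 and 9.25 in PBS. The genotypes were level in PBS, and at LPS 6 h the Ntg array was 3.76-fold higher. H2-Q8 had 12.01 on the Ntg LPS 6 h array and 10.42 on the LRRK2KO array, against 10.05 and 10.09 in PBS. These neighbours are close copies and their probes may share signal, so they may count as 1 observation.

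Il10, the anti-inflammatory cytokine, had 11.09 on the Ntg LPS 6 h array and 9.63 on the LRRK2KO array, 2.75-fold lower, against 7.44 and 7.22 in PBS. Calhm6, a channel-family gene of activated macrophages, had 10.25 on the Ntg LPS 6 h array and 8.60 on the LRRK2KO array, 3.14-fold lower, against 6.23 and 6.01 in PBS. Nt5c3, a pyrimidine nucleotidase, had 10.71 on the Ntg LPS 6 h array and 9.37 on the LRRK2KO array, 2.53-fold lower, against 8.33 and 7.97 in PBS. In each of these the level at LPS 6 h was above the PBS level in both genotypes, and the distance was smaller in LRRK2KO.

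Fcna and Pltp, by contrast, were lower at LPS 6 h than in PBS on the LRRK2KO arrays and not on the Ntg arrays. Fcna, a lectin that starts the complement pathway, had 9.74 on the Ntg LPS 6 h array and 7.98 on the LRRK2KO array, against 9.65 and 9.30 in PBS. Pltp, which transfers phospholipids to lipoproteins, had 9.86 on the Ntg LPS 6 h array and 8.27 on the LRRK2KO array, against 9.44 and 9.69 in PBS. Snhg16, a host transcript of small nucleolar RNAs, had 8.37 on the Ntg LPS 6 h array and 6.54 on the LRRK2KO array, against 7.18 and 7.07 in PBS. By this probe its position relative to PBS therefore was higher in Ntg and lower in LRRK2KO. The other detected Snhg16 probe differed by -1.12 at LPS 6 h and by -0.50 in PBS, at the limit for a like difference.

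Klf4, a zinc-finger transcription factor of myeloid differentiation, had 7.0 on the Ntg LPS 6 h array and 5.55 on the LRRK2KO array, 2.72-fold lower. In PBS the order was the opposite, with 5.26 in Ntg and 6.02 in LRRK2KO. Its other detected probes also gave lower LRRK2KO levels at LPS 6 h, by differences of -1.39 and -1.11, while their PBS differences were 0.60 and 0.09. The gene 9930111J21Rik2, for which no role is given here, differed by -1.37 at LPS 6 h and by -0.29 in PBS.

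**Figure D2:**
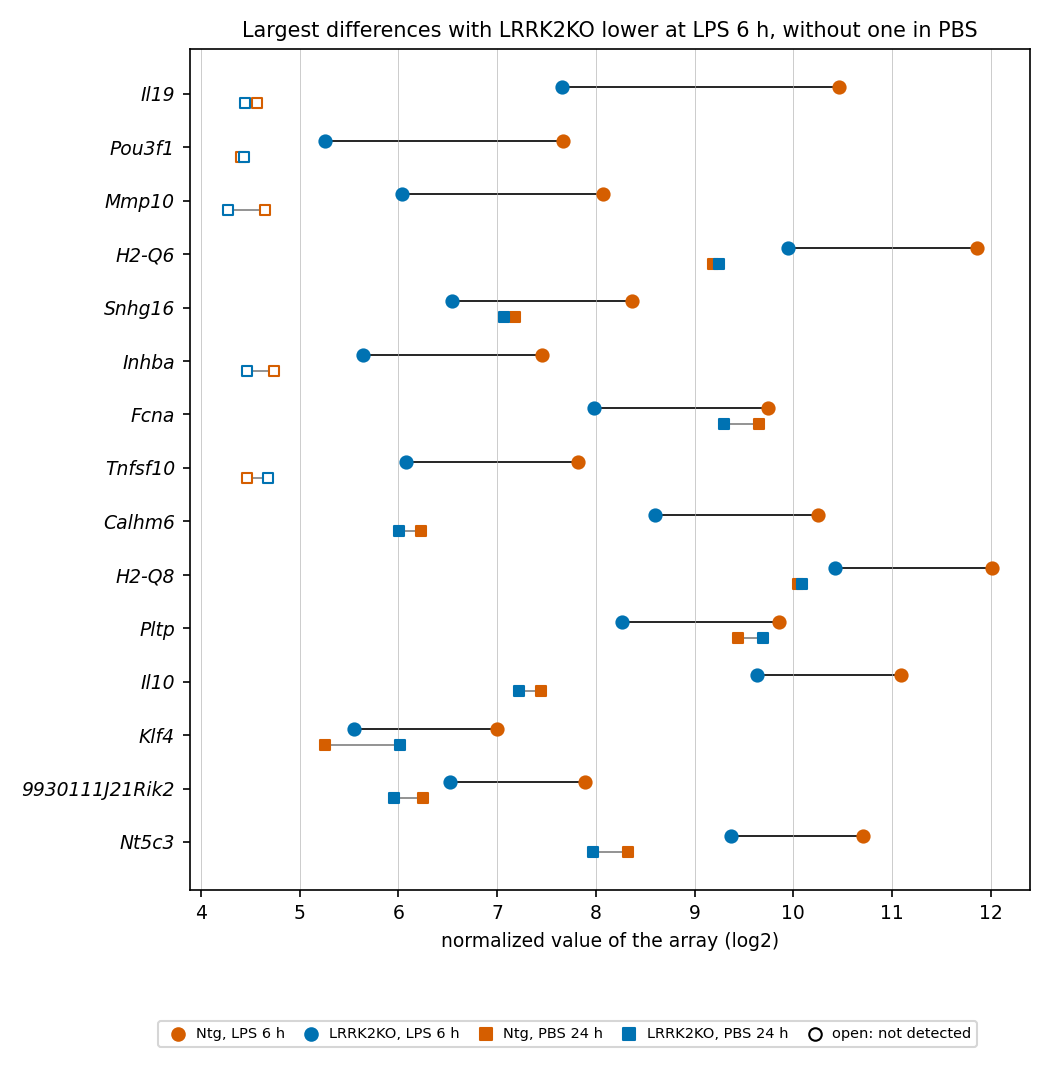
Normalized log2 values of the 15 named genes with the largest lower LRRK2KO levels at LPS 6 h among those without a like difference in PBS. Circles are the LPS 6 h arrays and squares the PBS 24 h arrays, Ntg in orange and LRRK2KO in blue, 1 array each, and open symbols were not detected. In every gene the LPS 6 h circles lie over 1 log2 unit apart, and the squares lie close together or, for Klf4, in the opposite order.

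Genes higher on the LRRK2KO array included several whose level at LPS 6 h lay below that in PBS. Agap1, a GTPase-activating protein for Arf GTPases in endosomal traffic, had 5.52 on the Ntg LPS 6 h array and 7.33 on the LRRK2KO array, against 7.67 and 7.37 in PBS. The LRRK2KO level was thus near that in PBS and the Ntg level well below it, a 3.49-fold difference between genotypes, though its other detected probe differed by 0.64 at LPS 6 h. Sort1, the sorting receptor sortilin, had 7.45 on the Ntg LPS 6 h array and 8.91 on the LRRK2KO array, against 9.47 and 9.92 in PBS, and its other 3 probes differed by 1.40, 0.58 and 0.56 at LPS 6 h. Rnase4, a secreted ribonuclease, had 7.31 on the Ntg LPS 6 h array and 8.82 on the LRRK2KO array, against 9.53 and 9.36 in PBS, and its other probe differed by 0.53 at LPS 6 h. In each of these 3 genes the other probes kept the direction, most of them under 2-fold.

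Zfp362, a zinc-finger gene, had 6.17 on the Ntg LPS 6 h array and 7.63 on the LRRK2KO array, against 9.22 and 9.19 in PBS. Ypel3, a growth-suppressing member of the Yippee-like family, had 8.16 on the Ntg LPS 6 h array and 9.51 on the LRRK2KO array, against 10.88 and 11.12 in PBS. Sort1, Rnase4, Zfp362 and Ypel3 shared one layout, with PBS differences under the limit of 0.5. Their levels at LPS 6 h were below those in PBS in both genotypes, and lowest on the Ntg array. The PBS difference of Sort1, 0.45, lay close to the limit, and its other probes differed there by 0.43, 0.34 and 0.45. Napepld, an enzyme that makes N-acylethanolamines, had 5.66 on the Ntg LPS 6 h array and 7.11 on the LRRK2KO array, against 6.75 and 7.12 in PBS, and its other probe differed by 1.65 at LPS 6 h and 0.65 in PBS.

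The other higher genes lay above their PBS level on the LRRK2KO array. Igfbp7, a secreted binding protein of insulin-like growth factors, had 6.79 on the Ntg LPS 6 h array and 8.87 on the LRRK2KO array, a 4.20-fold difference. In PBS it had 5.42 in Ntg and was undetected in LRRK2KO, the opposite order. Ptpn1, the tyrosine phosphatase PTP1B, had 5.53 on the Ntg LPS 6 h array and 7.17 on the LRRK2KO array, against 5.62 and 5.55 in PBS, so that only the LRRK2KO LPS 6 h array of these 4 stood apart. Abhd17c, a depalmitoylating enzyme, differed by 1.31 at LPS 6 h and by -0.27 in PBS, though its other detected probe differed by 0.38 at LPS 6 h. The mitochondrially encoded ATP6 had 8.51 on the Ntg LPS 6 h array and 9.87 on the LRRK2KO array, against 9.26 and 8.89 in PBS. Without background correction, Agap1, Ptpn1, Napepld, Zfp362 and Abhd17c differed by 0.92, 0.82, 0.73, 0.86 and 0.89 at LPS 6 h, each under 2-fold.

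**Figure D3:**
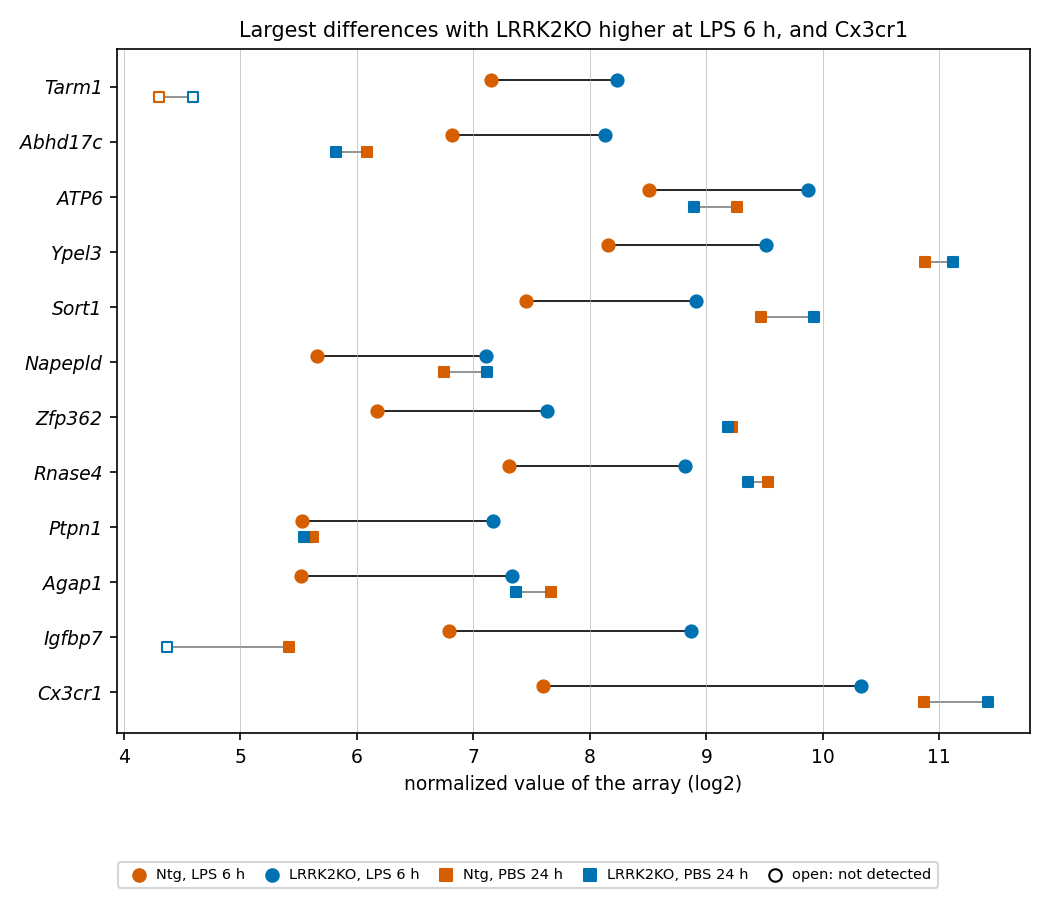
Normalized log2 values of Cx3cr1 and of the 11 named genes with the largest higher LRRK2KO levels at LPS 6 h among those without a like difference in PBS. Circles are the LPS 6 h arrays and squares the PBS 24 h arrays, Ntg in orange and LRRK2KO in blue, 1 array each, and open symbols were not detected. Zfp362, Ypel3, Sort1, Rnase4 and Cx3cr1 have both circles to the left of the squares, with the Ntg circle farthest left.

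Other probes for the same genes give a measure that did not choose them. Of the 198 genes without a like difference or without signal in PBS, 57 had another detected probe, 76 probes in all. Of these, 73 differed in the same direction at LPS 6 h and 33 differed at least 2-fold. The median difference of these probes, taken in the direction of the chosen probe, was 0.86. For all genes past 2-fold at LPS 6 h, 122 of 125 such probes kept the direction, and genes under 2-fold were not counted this way. The probes shared the arrays and the RNA, so they speak to the probe and not to the culture. Their PBS differences were not counted. Other probes of Napepld, Prickle1 and Tpcn1 differed by 0.65, 0.90 and 0.75 in PBS, past the limit, so the count does not bear on the split by PBS.

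The LPS 24 h pair shares no array with the LPS 6 h pair. Of the 159 genes without a like difference in PBS, 21 (13.2%) also differed at least 2-fold in the same direction at LPS 24 h, and 135 had the same sign there. Of the 117 genes with a like difference in PBS, 55 (47.0%) differed at least 2-fold at LPS 24 h. Over all 8039 genes, 61.7% had the same sign at both LPS times and 349 of 8338 (4.19%) differed at least 2-fold at LPS 24 h, 149 higher (1.79%) and 200 lower (2.4%). Il19 and Igfbp7 were among those still apart, with LPS 24 h differences of -2.29 and 1.49, whereas the levels of Agap1 differed by 0.35 and those of Ypel3 by 0.09.

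To see how the genotype difference lay across the LPS response, genes were grouped by the change from PBS to LPS at 24 h in both genotypes, a grouping that uses no array of the LPS 6 h pair and that was chosen after the data had been seen. The 73 genes at least 4-fold higher at LPS 24 h had a median genotype difference of -0.37 at LPS 6 h, and 47 of them (64.4%) were lower on the LRRK2KO array. The 157 genes 2-fold to 4-fold higher had a median of -0.29, with 110 (70.1%) lower. The 7031 genes under 2-fold had a median of 0.04, with 45.3% lower.

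On the other side of the response the sign was turned. The 228 genes 2-fold to 4-fold lower at LPS 24 h had a median of 0.24 at LPS 6 h, with 152 (66.7%) higher on the LRRK2KO array. The 43 genes at least 4-fold lower had a median of 0.39, with 32 (74.4%) higher. Genes detected on a single LPS 6 h array entered through the array on which they were higher, so their sign was set by that filter. In this group Cenpa, Top2a, Prc1 and Birc5 entered through the LRRK2KO array alone, and Pparg through the Ntg array alone. How far the medians and shares rest on such genes was not tested. In PBS the medians of the outermost groups were -0.19 and 0.20, in the same direction and smaller. Not every strongly induced gene followed, since 26 of the 73 were higher on the LRRK2KO array.

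**Figure D4:**
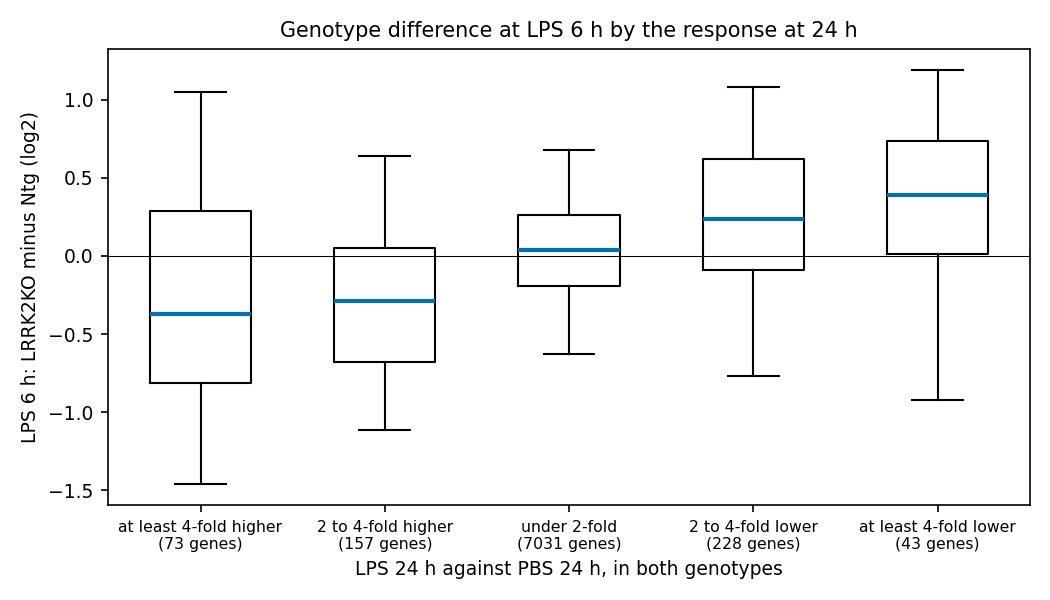
LRRK2KO minus Ntg difference at LPS 6 h (log2, vertical axis) for genes grouped by their level at LPS 24 h against PBS 24 h in both genotypes (horizontal axis, number of genes in each group). Lines mark medians, boxes the quartiles and whiskers the 5th and 95th percentiles. The medians go from -0.37 in genes at least 4-fold higher with LPS to 0.39 in genes at least 4-fold lower, and the boxes of neighbouring groups overlap.

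Cytokine genes were lower as a list, with exceptions at its centre. Of 20 measured cytokines, 18 were lower on the LRRK2KO array, 6 of them at least 2-fold and 0 higher at least 2-fold. Their median was -0.57 at LPS 6 h, -0.02 in PBS and -0.31 at LPS 24 h, beside 0.04 for all genes at LPS 6 h. Csf3, the granulocyte growth factor G-CSF, had 12.74 on the Ntg array and 11.43 on the LRRK2KO array, 2.49-fold lower, and its other probe differed by -0.79. Il15, a growth factor of lymphocytes, differed by -1.22 and Csf1, the growth factor of microglia themselves, by -1.01.

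The classical pro-inflammatory cytokines did not share this. Tnf had 14.60 on the Ntg array and 14.59 on the LRRK2KO array. Il1b had 14.73 on the Ntg array and 14.65 on the LRRK2KO array, against 10.65 and 9.60 in PBS, a PBS difference of -1.05. Il6 had 9.01 on the Ntg LPS 6 h array and 9.28 on the LRRK2KO array. Tnf and Il1b lay near the top of the range of the arrays, where differences can be compressed. Nos2, the inducible nitric oxide synthase, had 9.09 on the Ntg array and 8.37 on the LRRK2KO array, a 1.65-fold lower level, below the 2-fold limit.

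Interferon-stimulated genes were lower by small amounts that were also present in PBS. Of 35 measured, 33 were lower on the LRRK2KO array, 3 of them at least 2-fold, and their median was -0.50 at LPS 6 h, -0.45 in PBS and -0.56 at LPS 24 h. Isg20, an exonuclease with antiviral activity, had 9.63 on the Ntg LPS 6 h array and 8.32 on the LRRK2KO array, 2.48-fold lower, against 5.45 and 5.10 in PBS. Zbp1, a sensor of Z-form nucleic acids, differed by -1.05 at LPS 6 h and by -0.45 in PBS, and its other probes by -1.25 and -0.34 at LPS 6 h. Oas3, which makes 2-5A oligoadenylates, differed by -1.09 at LPS 6 h and by -0.87 in PBS. Isg20 and Zbp1 therefore met the limit for a difference not seen in PBS, and Oas3 did not.

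Antigen presentation genes were mostly lower as well. Of 17 measured genes, 14 were lower on the LRRK2KO array and 0 passed 2-fold by the chosen probes, with a median of -0.52 at LPS 6 h and -0.23 in PBS. Tap2 and Tap1, the subunits of the peptide transporter, differed by -0.98 and -0.83. Cd40, the co-stimulatory receptor, had a deposited intensity of 8660 on the Ntg array and 4130 on the LRRK2KO array, a normalized difference of -0.94, against -0.82 in PBS. Its other 3 probes were past 2-fold at LPS 6 h, with -1.58, -1.35 and -1.26, and their PBS differences ranged from -1.0 to -0.16. The class II genes H2-Ab1 and Cd74 went the other way, with differences of 0.63 and 0.68.

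Of 18 measured chemokines, 4 were at least 2-fold lower and 0 at least 2-fold higher, and their median was -0.36 at LPS 6 h and -0.46 in PBS. Ccl8, a monocyte attractant, had 8.54 on the Ntg LPS 6 h array and 5.70 on the LRRK2KO array, against 7.14 and 6.05 in PBS, lower in LRRK2KO in both. Ccl7 and Ccl12, of the same gene cluster, differed by -1.17 and -1.02 at LPS 6 h and by -3.01 and -1.54 in PBS. The chemokine differences past 2-fold were therefore all present in PBS. Ccl3 and Ccl4, which encode macrophage inflammatory proteins, differed by -0.12 and 0.01, and both probes lay near the top of the range of the arrays.

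Of 18 measured inflammatory enzymes and acute-phase proteins, 4 were at least 2-fold lower and 0 higher, with a median of -0.23 at LPS 6 h and 0.02 in PBS. Mmp3, a stromelysin, had a deposited intensity of 4480 on the Ntg LPS 6 h array and 975 on the LRRK2KO array, 4.16-fold lower after normalization. In PBS the Mmp3 probe had 5.24 in Ntg and was undetected in LRRK2KO, while its other probes differed by 0.12 and 0.03 there and by -1.97 and -1.69 at LPS 6 h. Serpinb2, the plasminogen activator inhibitor 2, had 12.59 on the Ntg LPS 6 h array and 10.55 on the LRRK2KO array, 4.10-fold lower, against 6.41 and 5.67 in PBS, a smaller difference in the same direction. Mmp13, a collagenase, had 14.51 on the Ntg LPS 6 h array and 13.36 on the LRRK2KO array, against 9.40 and 6.42 in PBS. Of its other probes, one differed by -1.39 at LPS 6 h and -0.07 in PBS and the other by -1.83 and -1.66, so the probes disagree on PBS. Mmp9, a gelatinase, had a deposited intensity of 4280 on the Ntg LPS 6 h array and 1250 on the LRRK2KO array, a normalized difference of -1.64, against -1.35 in PBS. Mmp9 was thus lower in LRRK2KO with and without LPS, and all 3 Mmp13 probes were lower in LRRK2KO at LPS 6 h.

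Signalling genes upstream of these showed smaller differences. Of 22 genes of Toll-like receptor signalling, 1 passed 2-fold, a share near the 3.92% of all genes, and the list median was -0.18. Tlr4, the LPS receptor, differed by -0.45, its adaptor Myd88 by -0.49, and the co-receptors Cd14 and Ly96 by 0.13 and 0.08. Tlr13, a sensor of bacterial ribosomal RNA, had 8.92 on the Ntg LPS 6 h array and 9.97 on the LRRK2KO array, against 10.69 and 10.13 in PBS, so the genotypes were in the opposite order there. Its other detected probe differed by 0.13 at LPS 6 h and by -0.72 in PBS, so the 2-fold difference rests on 1 probe.

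In the NF-kB pathway, its feedback inhibitors included, 25 genes were measured, and 2 were at least 2-fold lower and 1 higher, with a median of -0.17. Il1rn, the secreted antagonist of the interleukin 1 receptor, had 13.40 on the Ntg LPS 6 h array and 12.08 on the LRRK2KO array, 2.48-fold lower, against 8.41 and 8.36 in PBS. One of its other probes differed by -1.32 and the other by -0.45. Dusp1, the phosphatase that ends MAP kinase signalling, had 11.51 on the Ntg LPS 6 h array and 10.44 on the LRRK2KO array, against 10.54 and 10.29 in PBS. The higher one was Traf2, a signalling adaptor detected at 5.61 on the LRRK2KO array alone, for which the bound is only at least 1.23-fold higher. Of 16 immediate early genes, 12 were lower, with a median of -0.37 at LPS 6 h and -0.08 in PBS. Egr1, a zinc-finger factor, passed 2-fold with -1.36, and it differed by -1.90 in PBS.

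Homeostatic microglia genes had a median of 0.22 over 20 measured, with 3 at least 2-fold higher and 0 lower on the LRRK2KO array. Cx3cr1, the receptor for fractalkine, had 7.60 on the Ntg LPS 6 h array and 10.33 on the LRRK2KO array, 6.62-fold higher. In PBS it had 10.87 and 11.42, a difference of 0.55, which lay just past the limit of 0.5 for a like difference. At LPS 24 h it had 6.04 in Ntg and 7.96 in LRRK2KO. The LRRK2KO level was the higher one on all 3 pairs, and the gap was wider on both LPS pairs than on the PBS pair. Its ligand gene Cx3cl1 had 6.71 on the Ntg LPS 6 h array and 7.37 on the LRRK2KO array, under 2-fold.

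Sall3, a zinc-finger factor related to Sall1, was undetected on the Ntg LPS 6 h array and had 8.40 on the LRRK2KO array, at least 8.50-fold higher, against 5.67 and 7.60 in PBS. Its other detected probe differed by 1.58 at LPS 6 h and by 0.15 in PBS, a smaller difference at LPS 6 h and under the limit in PBS. Olfml3, a secreted glycoprotein typical of microglia, had 9.61 on the Ntg LPS 6 h array and 10.79 on the LRRK2KO array, against 9.35 and 10.76 in PBS. The Olfml3 difference was thus present without LPS, and for Sall3 the probes disagree on this. Other genes of the list differed little, Csf1r by 0.30, Tyrobp by 0.30, C1qa by 0.22 and Itgam by -0.13. The receptor P2ry13 differed by -0.46.

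Among 12 genes of alternative activation and growth factors, 2 were at least 2-fold lower and 1 higher, with a median of -0.21. Tgfbi, an extracellular matrix protein of macrophages, had 10.23 on the Ntg LPS 6 h array and 11.45 on the LRRK2KO array, against 9.09 and 9.71 in PBS. Pparg, a lipid-sensing nuclear receptor, was detected at 6.01 on the Ntg LPS 6 h array alone, at least 1.89-fold lower in LRRK2KO, and it differed by -1.12 in PBS. Of 19 genes of migration and focal adhesion, the median was -0.01, which turned to 0.01 with the mean of all detected probes. The adhesion receptor Vcam1 was 2.86-fold lower at LPS 6 h, and it differed by -1.08 in PBS. Ptk2, the focal adhesion kinase, was not among the genes measured.

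Cell cycle genes had a median of 0.40 over 19 measured, against 0.07 in PBS, with 13 higher. In the fitted values 3 passed 2-fold, all undetected on the Ntg array, and only Cenpa had a bound past 2-fold. Birc5, which differed by 0.85, was also undetected there. Such genes count as measured only through the LRRK2KO array, so the list median and the count of higher genes rest in part on that filter. Cenpa, a centromere histone, was undetected on the Ntg LPS 6 h array and had 6.40 on the LRRK2KO array, at least 2.13-fold higher, against 8.42 and 9.16 in PBS. Top2a, a topoisomerase of dividing cells, was undetected on the Ntg LPS 6 h array and had 6.03 on the LRRK2KO array, at least 1.65-fold higher, against 8.04 and 8.50 in PBS. Levels at LPS 6 h lay far below those of PBS in both genotypes and close to the detection limit.

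Metabolic and lysosomal lists had small positive medians, beside 4381 of 8039 genes (54.5%) higher on the LRRK2KO array at any size and a median of 0.04 over all genes. Of 14 genes of glycolysis and hypoxia, 13 were higher with a median of 0.36, and the PBS median was 0.32. Pfkl, the liver-type phosphofructokinase, differed by 0.89 at LPS 6 h and by 0.26 in PBS, but its other detected probe by -0.19 and 0.46. Of 17 nuclear genes of oxidative phosphorylation, 15 were higher with a median of 0.15, which was 0.01 with arrays scaled to a common median and differences relative to the median of all genes. Of 19 genes of the oxidative stress response, 14 were higher with a median of 0.31, and 0 passed 2-fold. The 11 cholesterol and lipid genes had a median of 0.09 with 6 higher, near the share of all genes, and the 16 heat-shock and unfolded protein response genes 0.20. Hsph1, a chaperone, had 7.28 on the Ntg LPS 6 h array and 8.30 on the LRRK2KO array, against 8.07 and 7.93 in PBS.

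Of 29 lysosome and autophagy genes, 1 passed 2-fold, a share near the 3.92% of all genes. The list median was 0.16 at LPS 6 h and -0.01 in PBS. Tpcn1, an endolysosomal cation channel, had 6.37 on the Ntg LPS 6 h array and 7.54 on the LRRK2KO array, against 9.98 and 10.25 in PBS, though its other probe differed by 0.86 at LPS 6 h and 0.75 in PBS. Of 26 relatives, partners and Rab substrates of LRRK2, 21 were higher, with a median of 0.18 at LPS 6 h and -0.09 in PBS, and 1 passed 2-fold, a share near that of all genes. Mapk14, the p38 alpha kinase that LPS activates, had 9.52 on the Ntg LPS 6 h array and 10.59 on the LRRK2KO array, against 11.06 and 11.35 in PBS. The Rab substrates Rab10, Rab8a, Rab12 and Rab29 differed by 0.59, 0.12, -0.18 and -0.12, and the other detected probe of Rab10 went the opposite way, with -0.41. Lrrk1, the closest relative of Lrrk2, had 6.07 on the Ntg array and 6.51 on the LRRK2KO array.

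**Figure D5:**
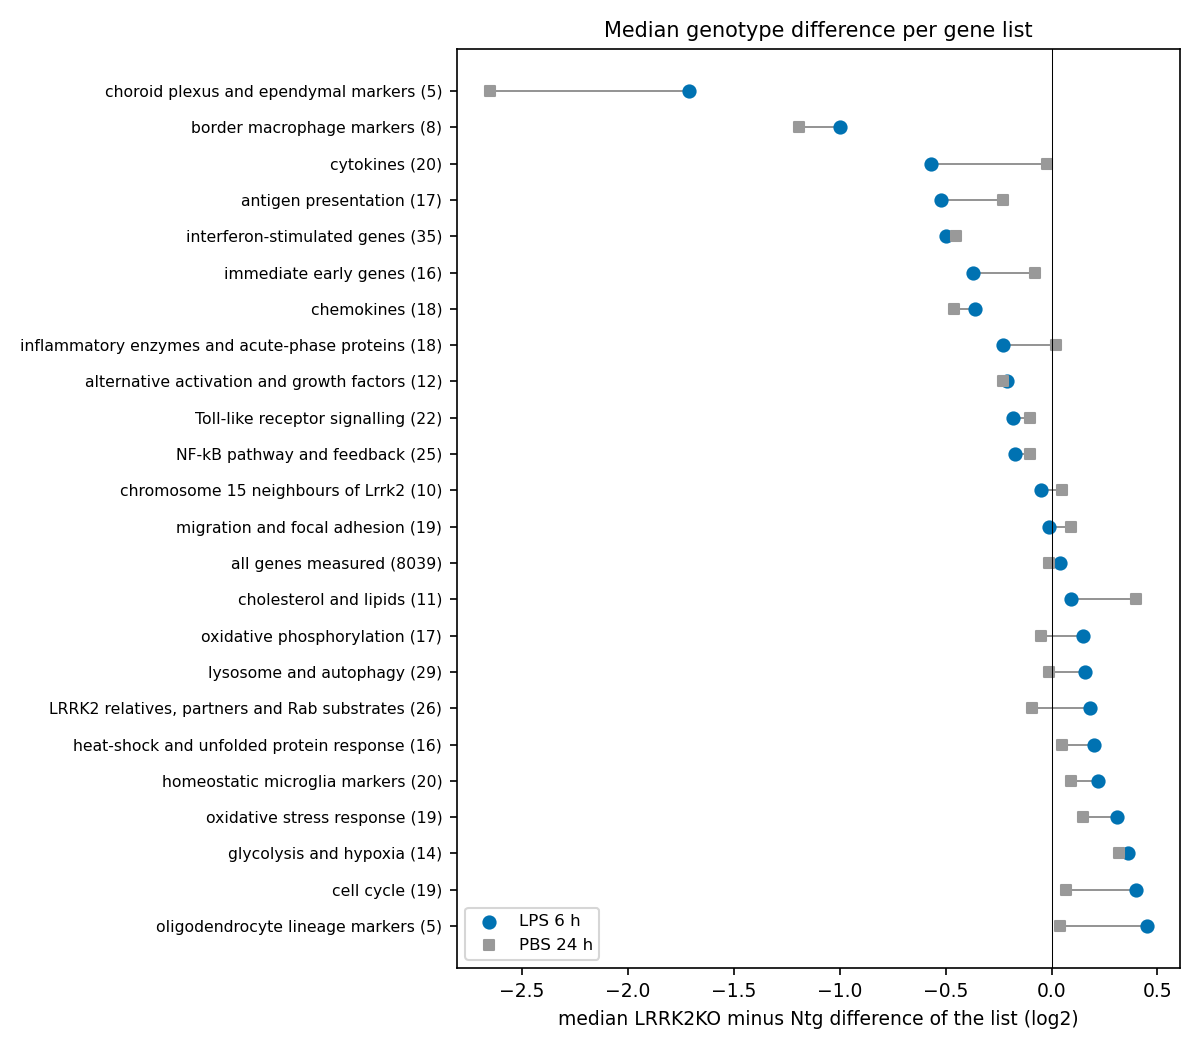
Median LRRK2KO minus Ntg difference (log2, horizontal axis) of each gene list with at least 5 measured genes, the number in parentheses, at LPS 6 h (blue circles) and PBS 24 h (grey squares). Cytokines lie at -0.57 with LPS and -0.02 in PBS, whereas interferon-stimulated genes, chemokines, choroid plexus markers and border macrophage markers lie left of 0 in both.

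Genes with a like difference in PBS included markers of other cell types. Of 5 measured choroid plexus and ependymal markers, 4 were at least 2-fold lower on the LRRK2KO array, 3 of them undetected there and 2 of these with a bound past 2-fold. The list median was -1.71 at LPS 6 h and -2.65 in PBS. Ttr, the transthyretin of choroid plexus epithelium, had 11.28 on the Ntg LPS 6 h array and 9.21 on the LRRK2KO array, against 12.71 and 9.38 in PBS. The summed linear level of the 11 choroid plexus markers on the array was 2890 in Ntg and 828 in LRRK2KO at LPS 6 h, with 5 and 2 of them detected. In such bulk RNA, fewer cells of a type and less RNA per cell cannot be told apart.

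Of 8 measured border macrophage markers, 4 were at least 2-fold lower, with a median of -1.0 at LPS 6 h and -1.19 in PBS, and 2 were higher, Stab1 by 0.71 and Cd209f by 0.26. Mrc1, the mannose receptor, had 10.69 on the Ntg LPS 6 h array and 9.19 on the LRRK2KO array, against 11.97 and 10.34 in PBS. F13a1, a coagulation factor subunit, differed by -1.62, the folate receptor gene Folr2 by -1.40 and the platelet factor gene Pf4 by -1.23. Their summed linear level was 14000 in Ntg and 10700 in LRRK2KO, with 8 of 13 detected on each array. These markers differed in the same direction as Ccl8, Ccl7, Il10 and the other lower genes, and their part in those differences was not tested.

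Decorin, Dcn, a matrix proteoglycan of fibroblasts, had 8.49 on the Ntg LPS 6 h array and was undetected on the LRRK2KO array, at least 10.6-fold lower by that probe, and it differed by -0.83 in PBS. Its other detected probe was lower too but by much less, with -1.32 at LPS 6 h and -0.14 in PBS. The fibroblast and pericyte markers summed to 756 in Ntg and 435 in LRRK2KO, with 2 and 3 detected of 10. Rims2, a scaffold of presynaptic release sites and the only neuron marker detected, was undetected on the Ntg LPS 6 h array and had 7.92 on the LRRK2KO array, at least 6.10-fold higher, and in PBS it differed by 3.60. Astrocyte markers summed to 1210 and 880, with 4 of 10 detected on each array, and 0 of the 9 lymphocyte markers on the array were detected. Monocyte and neutrophil markers summed to 1450 and 1550, with 3 of 13 detected on each array, and the endothelial markers to 289 and 323, with 1 of 9. Oligodendrocyte lineage markers summed to 927 and 802, with 3 and 5 of 10 detected. The median of the 5 measured was 0.45 at LPS 6 h and 0.04 in PBS, and -0.32 at LPS 6 h with the mean of all detected probes. Mbp, the myelin basic protein, was detected at 6.12 on the LRRK2KO LPS 6 h array alone, at least 1.76-fold higher, but with the mean of its probes the difference was -0.43.

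Other genes apart in PBS as well were Mndal, an interferon-inducible nuclear protein with close copies, at -1.74 and -1.10 in PBS, and Mras, a small GTPase at least 4.40-fold higher at LPS 6 h, with 0.68 in PBS. The other Mras probe differed by 2.15 at LPS 6 h and by 0.29 in PBS, under the limit. Pkp2, a desmosomal plaque protein, differed by 1.94 and by 1.05 in PBS, and Bmp1, a procollagen protease, by 1.91 and 1.38, with 1 of its other 3 probes at 0.09 at LPS 6 h. Tnfsf13b, the B cell survival factor BAFF, differed by 1.46 and by 1.02 in PBS, and Cd300ld, a myeloid receptor, by 1.45 and 1.86. Treml4, a myeloid receptor, was detected on the LRRK2KO LPS 6 h array alone, at least 2.71-fold higher. The Y-linked Eif2s3y differed by -1.18 at LPS 6 h and by -0.89 in PBS, and Xist by 0.63 and 0.58. At LPS 24 h Eif2s3y differed by -0.03 and Xist by 0.68. Other Xist probes differed by 0.54, 0.29 and -0.19 at LPS 6 h and by 0.84, -0.05 and 0.46 in PBS, so the probes disagree. The share of male and female tissue behind each array was not given in the sources used here, and its part in the other differences was not tested.

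Among 10 measured neighbours of Lrrk2 on chromosome 15, where strain background carried along with the disrupted allele would lie, 2 were counted as at least 2-fold higher, 1 of them by a value undetected on the Ntg array, and the median was -0.05. Prickle1, a planar polarity gene, had 6.90 on the Ntg LPS 6 h array and 8.03 on the LRRK2KO array, against 6.05 and 6.54 in PBS, just inside the limit for no like difference. Its other detected probe differed by 1.25 at LPS 6 h and by 0.90 in PBS, past that limit. Abcd2, a peroxisomal transporter, was undetected on the Ntg LPS 6 h array and had 5.91 on the LRRK2KO array, so its bound is at least 1.52-fold higher, short of 2-fold.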

How the data were processed

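RNA from microglia was measured on 6 Illumina beadchips, 1 per group, and the titles of the samples gave the groups. The deposited unnormalized table holds, per the file headers, a linear intensity and a detection p-value for each of 45281 probes. BeadStudio was used, per the submitters' processing notes, in a version not stated in them. The authors' series matrix holds linear intensity values that rank the probes as the unnormalized table does (Spearman rho = 1) with a median of 101.2 on every array, and served as an alternative. The normalization behind it was not stated in the sources used here.

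Background was corrected with the neqc function of limma 3.58.1 in R 4.3.3 (normexp with detection p-values, offset 16), followed by quantile normalization over all 6 arrays. The log2 values were computed here from the deposited intensities. The offset understates differences of dim genes. The steps were tested on simulated data.

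GEO's platform annotation gave 1 gene symbol for 34885 probes, several for 18 and none here for 10378. Updating through RefSeq changed 0 symbols. A gene took its probe with the highest mean, and 3104 genes had more than 1 detected probe. A gene counted as measured if detected at p under 0.01 on at least 1 LPS 6 h array, and as different if at least 2-fold apart with the brighter array detected. Where the dimmer array did not detect the gene, only a bound is given, against the higher of that array's lowest detected signal and the probe's own value. With 1 array a side there was no test, and precision is limited by the number of arrays.

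The genes named were, by size of difference among genes detected on both LPS 6 h arrays, the 10 largest in each direction without a like difference in PBS, the 5 largest without PBS signal and the 4 largest also 2-fold apart in PBS. Added were the 4 largest bounds in each direction, up to 4 genes per list, and Lrrk2, Cx3cr1, Cx3cl1, Tnf, Il1b, Il6, Nos2 and Ptk2. Further list members are named as examples and were chosen after their values were seen. The comparison, the genes and the 29 lists were chosen with earlier results of these data known. Alternatives were another scaling, no background correction, the series matrix, normalization of 4 arrays alone, other detection, fold and PBS limits, and the mean of all detected probes.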

Additional observations from a re-analysis of the deposited data

Results flagged for a closer look

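Both Igfbp7 and Klf4 had genotype differences that pointed in opposite directions with and without LPS. Igfbp7 differed by 2.07 at LPS 6 h and by -1.05 in PBS, where the LRRK2KO array did not detect it. Klf4 differed by -1.45 at LPS 6 h and by 0.77 in PBS. With 1 array per group the difference between the conditions was not tested.

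Of 10396 probes without a single gene symbol here, which entered no comparison, 1900 were detected on at least 1 LPS 6 h array. Of these, 66 differed at least 2-fold at LPS 6 h, 22 of them higher on the LRRK2KO array, a share near the 3.92% of all genes measured. Signal in these probes included 32 that differed at LPS 6 h and not between the PBS arrays. Over the genes measured, 159 (1.98%) had no like difference in PBS and 39 (0.485%) were detected on neither PBS array.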

How the results depend on the processing

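The counts depended on the limits and on background correction. Without background correction, and with the authors' series matrix values, 88 genes differed at least 2-fold at LPS 6 h (30 higher, 58 lower) in place of 315, and 45 of these without a like difference in PBS (13 higher, 32 lower) in place of 159, of which 33 were shared. Background left in the values shrinks the fold of dim genes by construction. Of the 15 named lower genes without a like difference or signal in PBS, 8 of 10 and 4 of 5 stayed past 2-fold, and of the higher ones 5 of 10. At a limit of 1.5-fold the counts were 1303 (718 higher, 585 lower) and 903 (516 and 387), and at 3-fold 50 (19 and 31) and 14 (7 and 7). Genes detected on both LPS 6 h arrays gave 96 higher, 54 of them without a like difference in PBS. With arrays scaled to a common median, 43 lower genes had no like difference in PBS, because that scaling shifted the median of all genes in PBS to -0.41, and 100 of the 159 genes were shared. Relative to that median, in an alternative added after the data were seen, 122 were shared. With the mean of all detected probes the sign was turned for the migration list (0.01), the oligodendrocyte list (-0.32) and Mbp (-0.43), whose probes disagree. All 5 response-group medians kept their sign or stayed near 0 under the alternatives of scaling, background correction, series matrix, normalization of 4 arrays and mean of probes. They were not computed for the other detection limits or for genes detected on both LPS 6 h arrays. No paired analysis was possible because each group has 1 array and the same replicate number, and for the same reason no replicate could be left out. Signal over background limits dim genes, and 99 of the 315 genes were detected on 1 array of the pair.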

Other observations

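A few list members lay outside the direction of their list at LPS 6 h. Among cytokines lower as a list, Il12a, a subunit of interleukin 12, differed by 0.71. Among chemokines, Cxcl14 differed by 0.80, and among inflammatory enzymes and acute-phase proteins Hp, encoding haptoglobin, differed by 0.78. Socs1, an inhibitor of cytokine signalling, differed by 0.65, beside -0.44 for Socs3. Among lysosomal genes higher as a list, Gla, the alpha-galactosidase, differed by -0.80. These members were chosen after their values were seen, and none passed 2-fold.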
